A study of Mus musculus
Rattus norvegicus and Mus musculus and Rattus norvegicus with 95 samples.

Results

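The 8 troponin genes of the mouse, Tnnc1, Tnnc2, Tnni1, Tnni2, Tnni3, Tnnt1, Tnnt2 and Tnnt3, were followed through embryoid body cells and every other cell and library of the series. They were chosen by name, with earlier results of these data known, and all 8 were present among the 13926 genes of the tables. The study profiled mouse-rat allodiploid embryonic stem cells (AdESCs), whose nucleus joins a haploid mouse genome with a haploid rat genome, together with their derivatives. Single cells were captured on a C1 chip, and stem cell lines were also sequenced in bulk. The single cells comprised 24 AdESCs (6 of line MR1-1, 8 of MR2-1, 4 of RM1-1 and 6 of RM2-1) and 17 cells of embryoid bodies (EBs), the aggregates in which stem cells differentiate in culture (12 of MR2-1 and 5 of RM1-1). A further 46 cells came from chimaeric animals that carry AdESC derivatives in the tissues of a host: 10 fibroblasts of MR1-1 and 8 neurons of RM1-1, both from a mouse chimaera, 4 lung cells of RM2-1 from a rat chimaera, and somatic testis cells, 4 of RM1-1 from a mouse chimaera and 20 of RM2-1 from a rat chimaera. The 8 bulk libraries, labelled as G0/G1 cells, were the mouse ESC lines F145 and F146, the rat ESC lines DA53 and DA25, and the same 4 AdESC lines. No drug treatment, dose, EB culture time or animal age is given in the labels used here. All cells of 1 kind from 1 line were averaged and counted as 1 sample, so that EBs and testis cells each gave 2 samples, AdESCs 4, and fibroblasts, neurons and lung cells 1 each. Nothing says that samples came from separate cultures, and p-values therefore measure only the spread between these samples.

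Troponin is the calcium switch of striated muscle. Its troponin C subunit binds calcium, troponin I holds back the actin-myosin interaction until calcium arrives, and troponin T ties the complex to tropomyosin on the thin filament. A working complex needs a member of each class, and the genes divide by muscle type: Tnnc1 serves heart and slow skeletal muscle and Tnnc2 fast muscle, Tnni3 and Tnnt2 are the adult heart forms of I and T, Tnni1 and Tnnt1 the slow forms, and Tnni2 and Tnnt3 the fast forms. Tnni1 is also the troponin I of the embryonic heart, and Tnnt2 is switched on early in heart development.

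Expression was given as FPKM, fragments scaled to transcript length and to the mapped total, which allows levels of different genes to be compared because it is scaled to length. A gene was called present in a cell at 1 FPKM or more. The summed FPKM per cell ran from 213045 to 411555 and the number of genes present from 3444 to 6246 (253192 to 411555 and 4413 to 6076 in EB cells), and the bulk libraries had 7835 to 8770 genes present. Read depth is unknown, since the tables hold no counts. No pair of columns was identical. The cells were checked against markers of their labels: all 6 pluripotency genes were present in each of the 4 AdESC samples. In the neurons 11 of 13 neuron genes were present on average. Of that list, Gap43, a growth-cone protein, was present in 8 of 8 neurons and Tubb3 in 4 of 8. The lung label was not borne out by its markers, because the 10 lung epithelial genes summed to 0.0976 FPKM with none present on average, whereas Cyp11a1, the first enzyme of steroid synthesis, was present in 2 of 4 cells with a mean of 1028 FPKM. In the cells labelled fibroblast, 10 of 12 fibroblast genes were present on average, summing to 513 FPKM. Epcam, an epithelial adhesion gene, was also present in 8 of the 10 cells, with a mean of 82.7 FPKM. The samples labelled testis differed from each other in markers. Of 13 neuron genes, 9 were present on average in RM1-1 testis cells, 2 in RM2-1 testis cells and 11 in RM1-1 neurons. Of 12 fibroblast genes, 3 were present in RM1-1 and 12 in RM2-1 testis cells. Of 8 Sertoli genes, 2 were present in each testis sample. In the tables the columns of a sample carry 1 shared name, so cells are numbered here by column order within their sample and not by the numbers of the labels.

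The troponin genes lie in the genome partly in pairs of an I gene and a T gene. On GRCm38 (GENCODE M21), Tnni1 (chr1:135779434-135810989) and Tnnt2 (chr1:135836354-135852260) are both on the plus strand, 25364 bases apart. Tnnt1 (chr7:4504570-4516382) and Tnni3 (chr7:4518305-4524229) are both on the minus strand with 1922 bases between them. Tnni2 (chr7:142441808-142444410) and Tnnt3 (chr7:142498836-142516009) are both on the plus strand, 54425 bases apart. The troponin C genes stand alone, Tnnc1 at chr14:31208312-31211729 on the plus strand and Tnnc2 at chr2:164777161-164779967 on the minus strand. Each value in the tables is for a whole gene, so exons and isoforms were not told apart.

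Within each class the mouse coding sequences are 68.5% to 71.02% identical in a pairwise alignment, and the longest run of identical bases in any pair is 22. The start of the coding sequence of the troponin C genes (bases 1 to 134, 5′ to 3′, GRCm38) is shown because EB cells differed so sharply in these genes, with Tnnc1 in most cells and Tnnc2 in none. Capitals mark the longest run that the pair shares, 21 bases beginning at base 54 of each.
Tnnc1: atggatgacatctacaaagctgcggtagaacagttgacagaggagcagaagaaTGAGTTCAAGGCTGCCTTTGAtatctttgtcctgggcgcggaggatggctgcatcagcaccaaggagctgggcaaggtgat
Tnnc2: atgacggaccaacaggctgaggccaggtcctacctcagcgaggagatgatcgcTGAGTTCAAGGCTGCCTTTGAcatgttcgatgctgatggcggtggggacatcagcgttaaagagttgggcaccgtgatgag
Outside the capitals the pair differs at many positions, and over the whole coding sequence 70.4% of aligned bases are the same. Rat sequences and read lengths were not used here, so how reads were divided between paralogues, or between the mouse and rat copy of a gene, was not tested.

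In embryoid body cells Tnnc1 was the leading troponin. It was present in 14 of 17 cells and reached 10 FPKM in 12. In the 12 cells of MR2-1 it stood at 696, 346, 217, 192, 182, 150, 99.2, 60.3, 27.2 and 8.48 FPKM in cells 4, 5, 12, 11, 9, 3, 6, 8, 2 and 1, and at 0 in cells 7 and 10. In the 5 cells of RM1-1 it stood at 265 FPKM in cell 5, 17.4 in cell 3, 15.0 in cell 4, 2.81 in cell 2 and 0 in cell 1. High Tnnc1 was thus spread over most MR2-1 cells, whereas 1 cell carried most of the RM1-1 signal. The sample means were 165 FPKM in MR2-1 and 60.1 FPKM in RM1-1, and the latter was 8.80 FPKM without cell 5. By mean level Tnnc1 ranked 344th of the 13926 genes in MR2-1 EB cells and 988th in RM1-1 EB cells. Tnnc2, the fast-muscle calcium sensor, was at 0 in all 17 EB cells.

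Troponin I was far scarcer than troponin C in these cells. Tnni1, the slow and embryonic form, was present in 3 EB cells, all of MR2-1 and all with Tnnc1: 102 FPKM in cell 2, 41.2 in cell 4 and 33.4 in cell 5. The other EB cells held at most 0.245 FPKM, and the 5 RM1-1 cells were at 0. Tnni3, the adult heart form, was present in no EB cell, the highest value being 0.554 FPKM in cell 4 of MR2-1, which also had the highest Tnnc1. Tnni2, the fast form, was at 0 throughout. Of the 14 EB cells with Tnnc1, 11 therefore had no troponin I at 1 FPKM.

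Troponin T in EB cells was almost entirely Tnnt2, the heart form. It was present in 11 of 17 cells. The MR2-1 cells 11, 4, 12, 8, 5, 7 and 9 had 34.7, 30.4, 30.2, 12.9, 11.7, 4.32 and 1.11 FPKM, and the other 5 were at 0. The RM1-1 cells 2, 4, 3 and 1 had 42.3, 33.5, 6.12 and 1.81 FPKM, and cell 5, the cell with most Tnnc1 in that line, was at 0. Tnnt2 thus reached similar heights in the lines, with means of 10.4 FPKM in MR2-1 and 16.7 FPKM in RM1-1. Of the other T genes, Tnnt1, the slow form, was present in 1 cell (15.8 FPKM in cell 1 of RM1-1, without Tnnc1), and Tnnt3, the fast form, in 1 cell (1.25 FPKM in cell 8 of MR2-1).

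**Figure D1:**
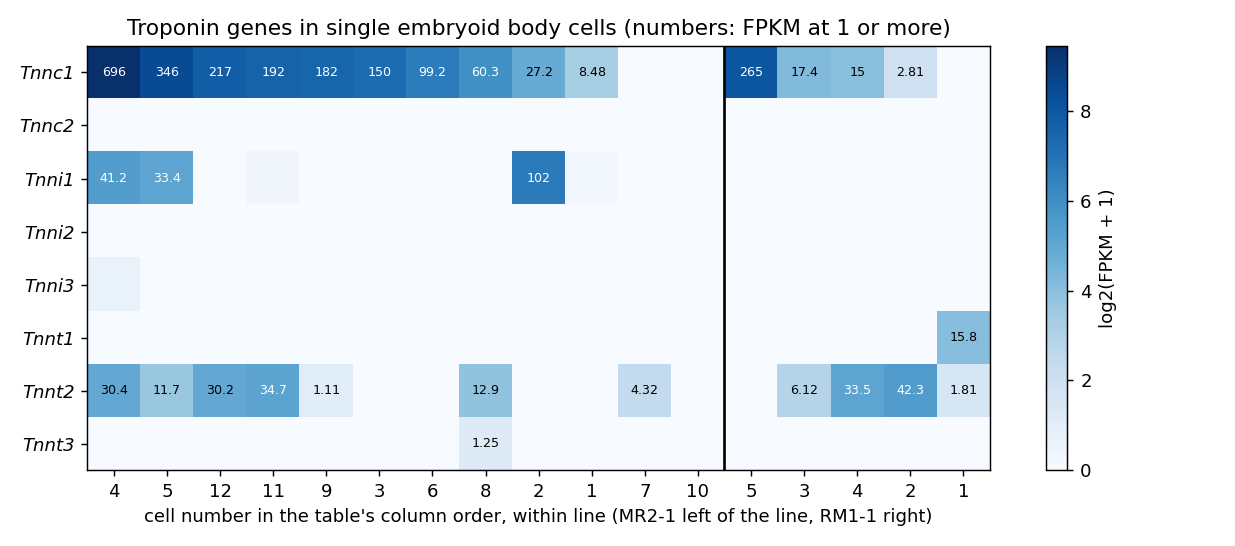
Troponin levels in the 17 EB cells (columns, numbered within MR2-1 and RM1-1) for the 8 genes (rows), with colour showing log2(FPKM + 1) and numbers giving FPKM. Tnnc1 and Tnnt2 fill most columns, Tnni1 appears in 3 MR2-1 cells, and Tnnc2 and Tnni2 are empty.

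Read cell by cell, the subunit that most often went with Tnnc1 was Tnnt2. Both were present in 9 of 17 cells, and both reached 10 FPKM in 6. Tnnt2 was present in 9 of the 14 cells with Tnnc1 and in 2 of the 3 without it. The joint count was therefore not read as a link between these genes. Cells 4 and 5 of MR2-1, those with the most Tnnc1 in that line, were the only 2 EB cells with a member of all 3 classes, C, I and T, and in both the members were Tnnc1, Tnni1 and Tnnt2. A further 6 cells had Tnnc1 with Tnnt2 alone, 1 had Tnnc1 with Tnnt2 and Tnnt3, and 1 had Tnnc1 with Tnni1. Another 4 cells had Tnnc1 and no other troponin, namely cells 1, 3 and 6 of MR2-1 and cell 5 of RM1-1. Of the 3 cells without Tnnc1, cell 7 of MR2-1 had Tnnt2 alone, cell 1 of RM1-1 had Tnnt1 and Tnnt2, and cell 10 of MR2-1 had none of the 8.

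The amounts of the subunits were compared over the same cells. Over the 17 cells the Pearson correlation of Tnnc1 with Tnnt2 on the log2(FPKM + 1) scale was 0.18 (Spearman 0.15), and leaving out any single cell gave 0.07 to 0.30. It was 0.49 over the 12 MR2-1 cells and -0.40 over the 5 RM1-1 cells. The RM1-1 value includes cell 5, with Tnnc1 at 265 FPKM and Tnnt2 at 0. With so few cells, no difference in direction between the lines was read from these values. Tnnc1 with Tnni1 gave 0.34 (Spearman 0.39), and Tnni1 with Tnnt2 gave 0.06. Tnnc1 with Tnnt1 gave -0.42, a value that rests on the 1 cell with Tnnt1. These values describe 17 cells from 2 samples, in which cells share a line and a culture, and zeros make up much of the data.

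**Figure D2:**
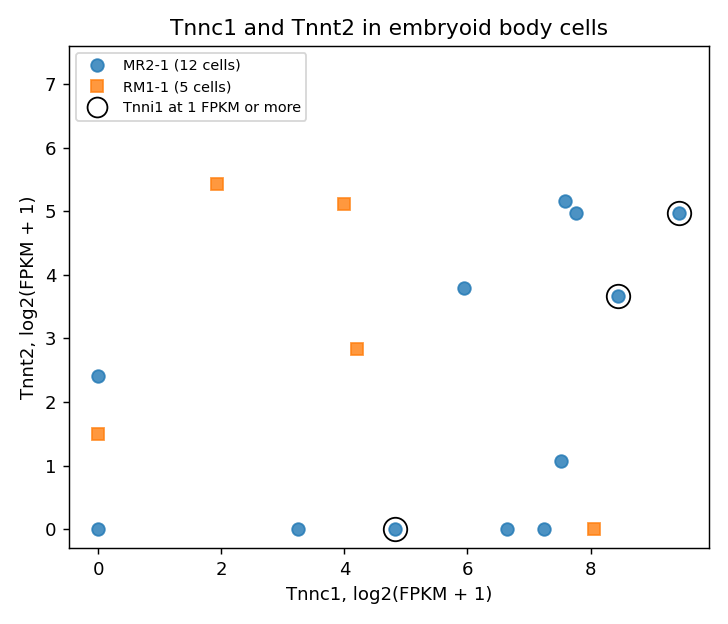
Tnnc1 (x axis) against Tnnt2 (y axis) in the 17 EB cells, both as log2(FPKM + 1), with colour showing the line. Cells with high Tnnc1 lie both at 0 and at high Tnnt2, and the cell of RM1-1 with most Tnnc1 has no Tnnt2.

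The 4 AdESC samples gave the starting level for these genes. Tnnc1 averaged 0.187 FPKM in MR1-1, 0.108 in RM2-1 and 0 in MR2-1 and RM1-1, and 1 of 24 cells held it, at 1.12 FPKM. Tnnt2 averaged 0.0450 FPKM in MR1-1, 0.0780 in MR2-1, 0.953 in RM1-1 and 0.0646 in RM2-1. Both EB samples lay above all 4 AdESC samples for both genes. The difference EB minus AdESC on the log2(FPKM + 1) scale was 6.55 ± 0.57 (SE) for Tnnc1, with an adjusted p of 0.000673 (limma, Benjamini-Hochberg over 8421 genes, 2 against 4 samples), the 3rd largest rise of the genes tested. For Tnnt2 it was 3.53 ± 0.66 (SE), with a limma adjusted p of 0.0182. Of the 8 troponins, 3 passed the filter on low values, an average of 1 FPKM or more across the 11 samples, and could be tested, and 2 of the 3 rose, where 5.55% of all tested genes passed the threshold of 0.05 and 2.45% passed it upwards. Passing that filter favours genes high in EB cells, so the share was not read as support.

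EBs and AdESCs share lines, and a fit that compares them within line left a limma adjusted p of 0.0441 for Tnnc1 (difference 6.54) and 0.126 for Tnnt2 (difference 3.65 ± 0.88, SE), with 25 genes called instead of 467. The call for Tnnt2 was also lost without any of 5 of the 6 samples compared, with limma adjusted p of 0.0578 without AdESC MR1-1 or MR2-1, 0.0537 without AdESC RM2-1, 0.0507 without EB MR2-1 and 0.0825 without EB RM1-1. The call for Tnnc1 held under every alternative that was run.

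Unlike Tnnc1 and Tnnt2, Tnni1 was already present in most AdESCs. It averaged 14.9 FPKM in MR1-1, 10.8 in MR2-1, 7.01 in RM1-1 and 12.7 in RM2-1 AdESCs, and was present in 14 of 24 cells. Bulk libraries of the same lines held less Tnni1, at 1.16, 1.10, 0.487 and 3.84 FPKM in that order. In EBs it averaged 14.7 FPKM in MR2-1 and 0 in RM1-1, so the groups overlapped. The difference EB minus AdESC was -1.59 ± 1.20 (SE) on the log2 scale, with a limma adjusted p of 0.467. In AdESCs Tnni1 was not joined by Tnnc1 in any cell. Where it had a partner there, this was Tnnt1 in 3 cells (6.81 FPKM in cell 2 and 2.54 in cell 6 of MR2-1, and 16.3 in cell 1 of RM2-1) and Tnnt2 in 1 (3.81 FPKM in cell 1 of RM1-1). Cell 1 of RM2-1 also held Tnni3 at 4.72 FPKM, the neighbour of Tnnt1 on the chromosome, and cells 3 and 6 of MR2-1 held Tnni2 at 1.04 and Tnnt3 at 3.00 FPKM. Cell 2 of MR2-1 held Tnnc2 at 2.00 FPKM beside Tnni1 at 20.6 and Tnnt1 at 6.81 FPKM, so that 1 undifferentiated cell also had a member of all 3 classes, none of them Tnnc1 or Tnnt2.

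Having several troponins was commonest in EB cells. At least 2 of the 8 were present in 11 of 17 EB cells (64.7%), in 5 of 24 AdESCs (20.8%) and in 7 of the 46 other cells (15.2%). At least 3 were present in 3 EB cells and 3 AdESCs, and in none of the other cells. Tnnc1 counts towards these totals, and it was itself present in 82.4% of EB cells, 4.17% of AdESCs and 21.7% of the other cells. Among cells with Tnnc1, another troponin was present in 10 of 14 in EBs (71.4%) and in 3 of 10 in the chimaera tissues (30%). Of the 3 EB cells without Tnnc1, 2 held Tnnt2, so the 71.4% was not read as a link to Tnnc1. Of the 46 cells of chimaera tissues, 14 had none of the 8 genes and 7 had Tnnc1 alone. These are shares of cells from few samples, at unknown depth, and no test was made of them.

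EB cells differed between lines in the other muscle genes they held, both with and without Tnnc1. The genes in this paragraph were chosen after their values were seen. In MR2-1, Myl3, a myosin light chain of heart ventricle and slow muscle, was present in 11 of 12 cells, 10 of them with Tnnc1 (mean over all 12 cells 105.5 FPKM), and so was Gata4, a heart and endoderm transcription factor (mean 60.7 FPKM). Gata6 and Fabp3, a fatty acid carrier of heart muscle, were present in all 12, with or without Tnnc1. Myh7, the slow and fetal heart myosin heavy chain, was present in 6, all with Tnnc1, at a mean of only 2.04 FPKM. Actc1, the cardiac actin, was at 0 in all 12 MR2-1 cells. In RM1-1, Myl3 and Myh7 were at 0 in the 5 cells and Gata4 reached at most 0.590 FPKM. Actc1 was present in 3 of the 4 RM1-1 cells with Tnnc1 and in the 1 cell without it, with a mean of 150.0 FPKM and a highest value of 518 FPKM. Fabp3 was present in 3 and Gata6 in 2 of the 4 RM1-1 cells with Tnnc1. Each line is 1 EB sample, so this difference between lines has no test. Nkx2-5, Myh6, Myl2 and Actn2, which mark heart muscle cells, were at 0 in all 17 EB cells.

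**Figure D3:**
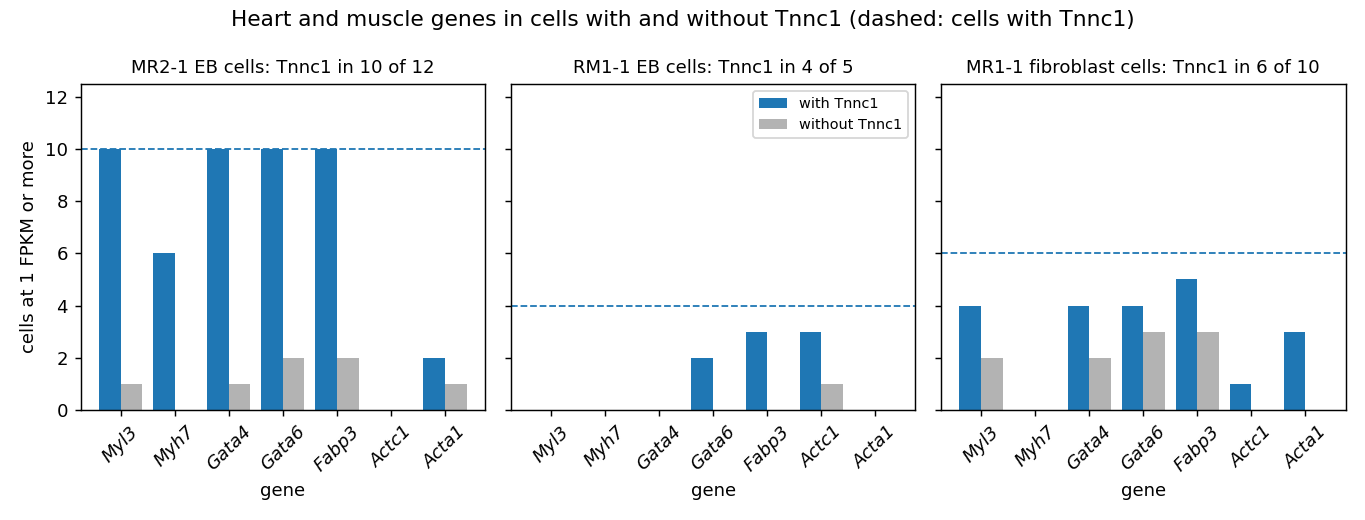
Number of cells (y axis) in which each of 7 heart and muscle genes (x axis) was present at 1 FPKM or more, for cells with Tnnc1 (blue) and without it (grey), in MR2-1 EB cells, RM1-1 EB cells and MR1-1 fibroblasts, with a dashed line at the number of cells with Tnnc1. Myl3, Gata4, Gata6 and Fabp3 reach the line of 10 in MR2-1 EB cells and are also present in 1 or 2 cells without Tnnc1, and Actc1 is present in RM1-1 EB cells and not in MR2-1 EB cells.

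Markers of other cell types were measured beside the troponins. Of the 9 smooth muscle genes 8 were present on average in each EB sample, with summed levels of 499 FPKM in MR2-1 and 953 FPKM in RM1-1 against 5.91 to 12.6 FPKM in AdESCs. Fibroblast genes summed to 359 and 730 FPKM against 45.3 to 58.7 FPKM in AdESCs. Visceral endoderm genes summed to 124 FPKM in MR2-1 (5 of 11 present) and 7.43 FPKM in RM1-1 (1 of 11 present). Within the 17 cells Tnnc1 correlated with the mean log2 level of heart hormone and energy genes at 0.53, visceral endoderm genes at 0.44, lung epithelial genes at 0.42, endothelial genes at 0.41, thick filament genes at 0.33 and cardiac transcription factors at 0.17. It correlated at -0.11 with skeletal muscle genes, -0.30 with Z-disc genes, -0.35 with thin filament partners, -0.56 with fibroblast genes, -0.57 with neuron genes and -0.58 with smooth muscle genes, so the muscle lists did not move with it as a body. It correlated at 0.28 with the number of genes present and at 0.27 with summed FPKM. These correlations pool both lines, which differed in Tnnc1 and in smooth muscle genes. Differences between lines and between cells are therefore mixed in them, and values within a line were not computed. Cell 10 of MR2-1, without any troponin, had the highest mean level of fibroblast genes (5.82, log2 scale) and of smooth muscle genes (5.64) of the 17. The next highest MR2-1 cells stood at 1.79 for fibroblast genes (cell 6) and 2.33 for smooth muscle genes (cell 11). Cell 10 can thus weigh heavily in the MR2-1 levels of both lists and in their correlations with Tnnc1. Values without that cell were not computed. The part of these cell types in the troponin levels was not tested.

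Genes of the contractile apparatus were counted from lists chosen with earlier results of these data known. In EBs against AdESCs the median log2 difference of all 8421 tested genes was 0.05, with 2.45% of them called higher and 3.1% lower. The filter on low values favours genes that are high in some samples, EBs included. The counts and medians of the lists were therefore not read as support. Of 7 tested genes of the thin filament list, 3 rose, and the median of the list was 3.38. They were the tropomyosin genes Tpm1 by 5.26 (limma adjusted p 0.0141) and Tpm4 by 3.05 (0.0110), and Nexn, an actin-binding protein, by 3.38 (0.0377). The same 3 genes, and Cryab (below), were called higher in testis cells over AdESCs, where 11.1% of all genes were called. There the median of the thin filament list was 3.48. Between EBs and testis cells none of the 7 was called, where 0.0713% of all genes were called. Over the 17 EB cells Tnnc1 correlated at -0.46 with Tpm1, 0.43 with Tpm4 and -0.21 with Nexn. In EBs against AdESCs none of 2 thick filament genes passed, with Myl3 at 2.93 (limma adjusted p 0.287) and Myl7, the atrial myosin light chain, at 1.297, for a median of 2.12. Of 5 genes of the Z-disc and intermediate filaments, Cryab, a chaperone abundant in muscle, rose by 4.82 (limma adjusted p 0.0141), for a median of 1.51. Of 2 calcium handling genes none passed (median 0.73), and the highest EB means of that list were Atp2a2, the calcium pump of the sarcoplasmic reticulum, at 24.7 FPKM, and its regulator Pln at 2.60 FPKM.

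Heart regulators and hormones were mixed, and their counts are to be read against the same 2.45% higher and 3.1% lower over all genes. The same limit of the filter applies to them. Of 5 tested cardiac transcription factors, Gata6 rose by 4.27 (limma adjusted p 0.0397) and Tbx3 fell by 3.69 (limma adjusted p 0.0186), for a median of 2.63. None of 3 heart hormone and energy genes passed (median -0.26), although Fabp3 averaged 1233 FPKM over the EB samples and Nppb, a natriuretic peptide, 11.3 FPKM, nearly all of it in MR2-1. Of 3 skeletal muscle genes, Mylpf, the fast-muscle myosin light chain, fell by 5.57 (limma adjusted p 0.000274), for a median of -1.93. Smooth muscle genes had 2 of 7 higher, Tagln by 8.93 (limma adjusted p 0.00917) and Myl9 by 5.58 (0.0270), for a median of 1.86.

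Lists for other identities were read in the same comparison, with the same limit of the filter. Pluripotency genes fell in 5 of 6 (median -4.76), and fibroblast genes rose in 1 of 12, the filament gene Vim by 5.75 (limma adjusted p 0.00857), for a median of 2.03. Of 7 neuron genes Nefl fell, of 3 lung epithelial genes Epcam fell, and of 2 leukocyte genes Laptm5 fell. Of 3 Sertoli genes Clu rose, and of 6 visceral endoderm genes Gata6, which is also on the cardiac list, rose. None of 3 Leydig genes and none of 4 endothelial genes passed the threshold. Across all genes 1911 had an unadjusted p under 0.05 in this comparison.

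The genes whose pattern over the 17 EB cells was most like that of Tnnc1 were not muscle genes. Among 7122 genes present in at least 4 cells, the highest Pearson correlations were those of Cdca5 (0.78), Trmt10b (0.75), Lta4h (0.74), Slc16a1 (0.74), Cul2 (0.73), Trip13 (0.72), Ppm1d (0.72), Pkmyt1 (0.71), Hint1 (0.71) and Tomm20 (0.71). The median over all ranked genes was 0.07 and the 95th percentile 0.48. Over the 11 sample means, among 8418 genes, the most alike were Aadat (0.96), Zfp395 (0.94), St3gal6 (0.92), Ccdc125 (0.92) and Slc40a1 (0.91). The cells of an EB share their line, and the sample means differ in kind, so these values are descriptions.

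Outside EBs and AdESCs, Tnnc1 was found chiefly in cells labelled fibroblast. It averaged 37.1 FPKM there, with 198 FPKM in cell 8, 84.8 in cell 10, 42.8 in cell 7, 21.9 in cell 1, 21.7 in cell 9, 1.38 in cell 5 and under 1 FPKM in the other 4. Thus 6 of 10 cells had it, and only 2 of the 6 had another troponin: cell 7 had Tnni1 at 25.8 FPKM, and cell 10 had Tnnt3 at 1.80 FPKM. Tnnt2 was present in other cells of that sample, at 82.7 FPKM in cell 2, the highest of all 87 cells, and at 4.27 FPKM in cell 4. Myl3 and Gata4 were each present in 4 of the 6 cells with Tnnc1 and in 2 of the 4 without it, Gata6 in 4 and 3, and Fabp3 in 5 and 3, so these genes were not limited to the cells with Tnnc1. Actc1 was present in 1 and Acta1, the skeletal actin, in 3 of the 6 cells with Tnnc1, and both were absent at 1 FPKM from the other 4.

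In the cells labelled lung, which had the Leydig marker levels given above (summed level 1146 FPKM, 4 of 6 genes present), each of 3 cells held a different troponin. Cell 3 had Tnnc1 at 64.3 FPKM, cell 4 had Tnnt2 at 50.2 FPKM, and cell 1 had Tnni1 at 9.47 FPKM. The sample means were 16.2, 12.6 and 2.37 FPKM, so a mean over cells would give the picture of a complete C, I and T set that no cell of the 4 had.

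In somatic testis cells troponins were scattered as well. Tnnc1 averaged 1.85 FPKM in RM1-1 and 1.20 FPKM in RM2-1. It was present in 3 of 24 cells, and with Tnnt2 in 1 of them (16.2 and 22.1 FPKM in cell 1 of RM2-1). That was the only cell outside EBs with both genes, although Tnnc1 was present in 10 and Tnnt2 in 13 of the 46 cells. Tnni1 was present in 8 of 20 RM2-1 testis cells (mean 10.2 FPKM, highest 67.3) and at 0 in the 4 RM1-1 cells. Tnnt2 averaged 5.22 FPKM in RM2-1 and 0.767 FPKM in RM1-1. Cell 14 of RM2-1 had Tnni3 at 49.1 FPKM beside Tnni1 at 30.1 FPKM, the highest Tnni3 of any cell. Tnnc2 was present in 2 testis cells, at 5.15 and 4.10 FPKM, and its highest level in the series was the former. Smooth muscle genes summed to 5640 FPKM in the RM2-1 testis sample and 153 FPKM in the RM1-1 sample, and their part in these troponin levels was not tested.

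The 8 neurons had no Tnnc1 at all. Tnnt3, the fast-muscle T gene, stood at 54.9 FPKM in cell 2, its highest level in any cell, and no other neuron held it at 1 FPKM. Tnnt2 was present in cell 6 at 23.7 FPKM and in cell 3 at 1.87 FPKM, the latter with Tnnt1 at 2.86 FPKM. Tnni1 was at 0 in all 8. Tnni2 was the rarest member of the family, present in a single cell of the 87, an MR2-1 AdESC with 1.04 FPKM.

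By mean level Tnnc1 ran from EBs through fibroblasts, lung and testis cells to AdESCs, with neurons at 0. The neighbours fibroblast, lung and neuron are 1 sample each, so their places in that order could not be tested. Mean Tnni1 was highest in AdESCs and lowest in neurons. However, the MR2-1 EB sample (14.7 FPKM) lay within the AdESC samples (7.01 to 14.9 FPKM) for Tnni1. All samples with Tnni1 at 0 were of line RM1-1, namely its neurons, EB cells and testis cells. The AdESCs of RM1-1 were also the lowest AdESC sample (7.01 FPKM). Line and kind of cell therefore cannot be told apart in the order for Tnni1. Tnnt2 ran from EBs (13.6 ± 4.45 FPKM, SD, n = 2) through lung (12.6), fibroblasts (8.70), neurons (3.19) and testis cells (2.99 ± 3.15, SD, n = 2) to AdESCs. The lung value lay within the 2 EB values, so EBs did not stand apart from every other kind in Tnnt2.

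**Figure D4:**
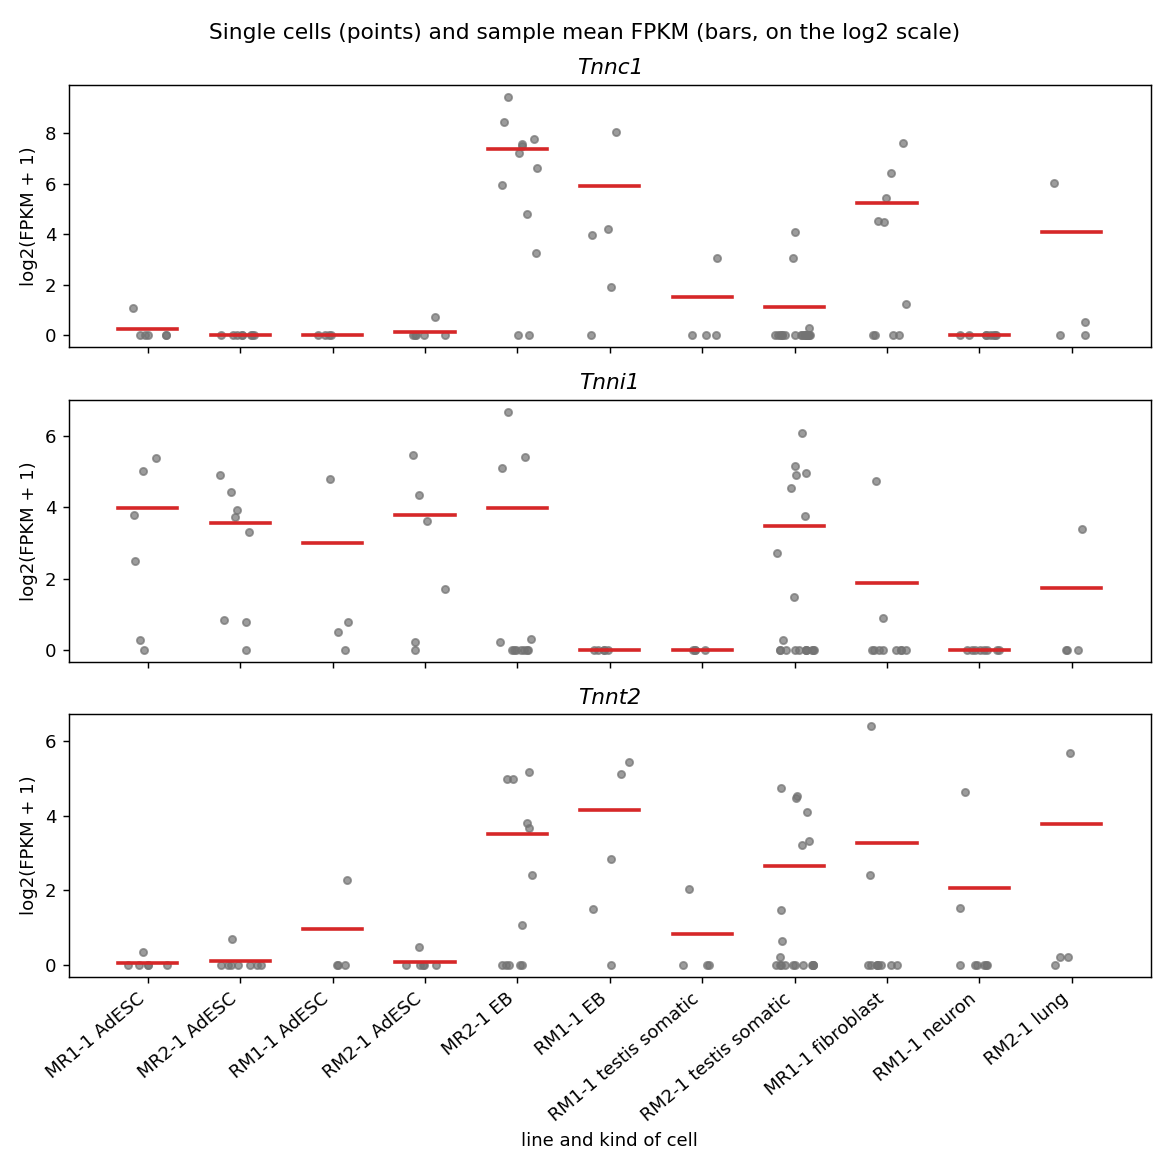
Tnnc1, Tnni1 and Tnnt2 in each of the 87 single cells, grouped by sample on the x axis, with log2(FPKM + 1) on the y axis and a bar for each sample's mean. Tnnc1 is high in both EB samples and in the fibroblast sample, and Tnni1 is spread over the 4 AdESC samples.

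EBs were also set against cells that had differentiated in chimaeras. The comparisons share samples, and each is therefore given by its own values. The testis samples also differed from each other in their markers, as given above. Against somatic testis cells, Tnnc1 averaged 112 ± 74.1 FPKM (SD, n = 2) in EBs and 1.52 ± 0.463 FPKM (SD, n = 2) in testis cells, a log2 difference of 5.33 ± 0.66 (SE) with a limma adjusted p of 0.0328. Tnnc1 was 1 of 3 testable troponins to pass and 1 of 6 genes in all (0.0713% of those tested, 0.0475% upwards), the others being Trim71, Lin28a and Aadat, which were higher in EBs, and Tm4sf1 and Axl, which were lower. Tnnt2 differed by 2.104 (limma adjusted p 0.459) and Tnni1 by 0.24 (limma adjusted p 0.983).

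The call of Tnnc1 against testis cells was not stable. It was lost with a pseudocount of 0.1 FPKM (limma adjusted p 0.149) and with the line as a block (0.719). It was also lost without any of the 4 AdESC samples, which share the estimate of the spread (0.101 to 0.126). Without cell 5 of RM1-1 the difference was 4.01 and the limma adjusted p 0.338. Testis cells against AdESCs gave no called troponin, where 11.1% of all genes were called and 2371 had an unadjusted p under 0.05: Tnnc1 differed by 1.22 (limma adjusted p 0.198), Tnnt2 by 1.42 (0.195) and Tnni1 by -1.84 (0.345).

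Against the other differentiated samples, with each kind weighted equally, Tnnc1 was higher in EBs by 3.98 ± 0.56 (SE) on the log2 scale, with a limma adjusted p of 0.0728. Tnnt2 differed by 1.12 (limma adjusted p 0.573) and Tnni1 by 0.65. Fibroblasts, neurons and lung cells were 1 sample each and added nothing to the estimated spread. The p-values of this comparison therefore do not measure the spread within those kinds. No troponin was called, nor were many other genes: 2 of 8421 passed (0.0238%), and 893 had an unadjusted p under 0.05. Without the filter on low values, which brings in many more genes, Tnnc1 passed (limma adjusted p 0.00520) and Tnnt3 was called lower in EBs by a difference of -0.76 (limma adjusted p 0.0463), with 1 neuron holding most of the Tnnt3 signal. Tnnc1 also passed without EB RM1-1, either testis sample or the fibroblast sample (limma adjusted p 0.0165 to 0.0237).

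All 7 differentiated samples together were compared with the 4 AdESC samples in a fit of their own. Both Tnnc1 (3.52 ± 1.15, SE, limma adjusted p 0.0487) and Tnnt2 (2.58 ± 0.61, SE, limma adjusted p 0.00969) rose on the log2 scale, 2 of 3 testable members, where 15.9% of all genes were called and 7.37% were called higher. Tnni1 gave -1.997 ± 0.77 (SE) with a limma adjusted p of 0.0902. The call of Tnnc1 lay at the threshold. It was lost in 8 of the 11 fits that left out a sample (limma adjusted p of 0.0664 to 0.119 without any of the 4 AdESC samples, either EB sample, the fibroblast sample or the lung sample). It was also lost without the filter (limma adjusted p 0.130), with means of log values (0.0919) and with upper-quartile scaling (0.0516). With means of log values Tnnt2 also lost its call (limma adjusted p 0.0554), and Tnni1 gained one, lower in differentiated samples at -1.76 (limma adjusted p 0.0105), as it did without EB MR2-1 (limma adjusted p 0.0313).

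In bulk stem cell lines every troponin was low, the highest value being 5.85 FPKM, and the question was whether hybrid lines differed from either parent species. In bulk libraries, fewer cells with a transcript and less of it per cell cannot be told apart. The sources used here do not say whether an AdESC value is a sum, a mean or another union of the mouse and rat copies, and rat values also depend on the rat annotation. Tnnt2 stood at 0.459 and 1.39 FPKM in mouse F145 and F146, 0.441 and 1.39 in rat DA53 and DA25, and 2.22, 2.36, 1.41 and 2.39 in AdESC lines MR1-1, MR2-1, RM1-1 and RM2-1. Every AdESC line was thus above the 4 parental lines, RM1-1 by a small margin. The log2 difference of 0.71 from mouse (limma adjusted p 0.308) and 0.72 from rat (0.235) did not pass, and neither did any of the 4 testable troponins in either comparison, where 3.89% and 9.7% of genes were called and 1724 and 2276 genes had an unadjusted p under 0.05. Both comparisons share the AdESC lines.

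The parental species differed in the other genes. Tnni1 was at 2.23 and 3.29 FPKM in mouse F145 and F146 and at 0.0428 and 0.420 in rat DA53 and DA25. Tnni3 was at 2.34 and 4.25 FPKM in the mouse lines and at 0.0932 and 0.229 in the rat lines. Its neighbour Tnnt1 was at 2.07 and 5.85 FPKM in mouse and 0.0408 and 0.0668 in rat. In each of the 3 genes both mouse lines lay above both rat lines, by log2 differences, rat minus mouse, of -1.61 ± 0.53 (SE, limma adjusted p 0.0461), -1.85 ± 0.47 (SE, 0.0157) and -2.12 ± 0.50 (SE, 0.0114), and in this comparison 26.6% of all genes were called and 12.6% of all genes were called lower. Tnnt2 differed by -0.01 (limma adjusted p 0.990). AdESC values ran from 0.487 to 3.84 FPKM for Tnni1, with RM2-1 above both mouse lines, from 0.432 to 2.21 FPKM for Tnni3 and from 0.489 to 2.26 FPKM for Tnnt1.

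The calls between species rested on few libraries. Without DA25 the limma adjusted p was 0.0723 for Tnni3 and 0.0638 for Tnnt1, without DA53 it was 0.0996 and 0.0694, and without F146 both fell below the filter. Tnni1 lost its call in 6 of the 8 fits that left out a library, with limma adjusted p up to 0.226. Fibroblast genes moved with species, since 12 of 12 were present in F145 (summed level 3037 FPKM) and 11 of 12 in F146 (521 FPKM), against 2 of 12 in DA25 (326 FPKM) and 1 of 12 in DA53 (675 FPKM), and Col3a1, a fibrillar collagen, was at 0 in both rat lines. Their part in the troponin difference was not tested. Tnnc1 itself was at 1.13 and 0.939 FPKM in mouse F145 and F146, 0.426 and 0.419 in rat DA53 and DA25, and 0.294 to 1.03 in AdESC lines, and with Tnnc2, Tnni2 and Tnnt3 it was too low to be tested.

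**Figure D5:**
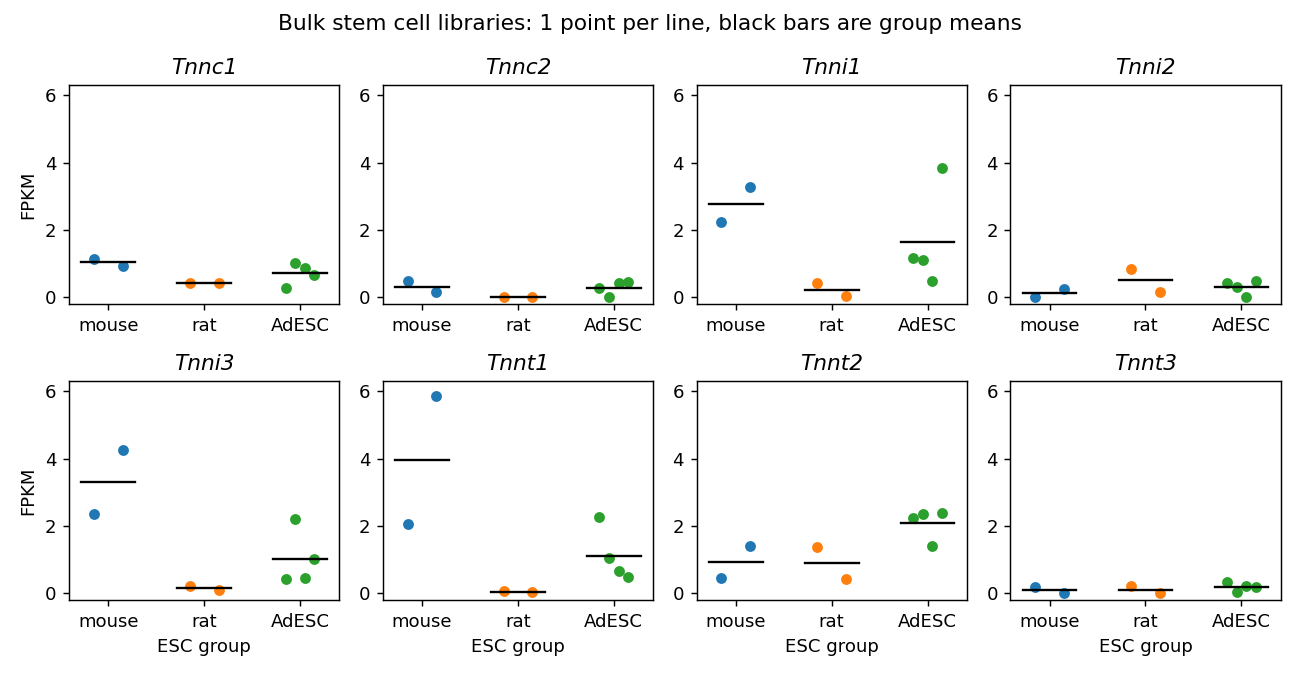
FPKM of the 8 troponins in the 8 bulk stem cell libraries, with 1 point per line, grouped as mouse, rat and AdESC, and black bars at the group means. Tnni1, Tnni3 and Tnnt1 lie higher in both mouse lines than in both rat lines, and Tnnt2 is highest in AdESC lines.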

How the data were processed

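The authors deposited FPKM values, 1 per gene and cell or library, for 13926 homologues named by mouse symbols. The unit and the tools Cufflinks 2.1.1, TopHat2 2.0.10 and FastQC 0.10.1 (builds rn5 and mm10) come from the submitters' processing notes, and Trizol extraction and TruSeq libraries from the labels' protocols. How mouse and rat reads were joined, strandedness and depth are not given in the sources used here. The members and gene lists were chosen with earlier results of these data known.

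Cells of 1 kind from 1 line were averaged to 1 sample. Genes averaging 1 FPKM or more in a fit were tested on log2(FPKM + 1) with limma 3.58.1 (R 4.3.3), with Benjamini-Hochberg adjustment over all genes and a threshold of 0.05. Differences on this scale understate changes of low genes. The single-cell fit held 11 samples of 6 kinds with 1 shared spread, the comparison of 7 with 4 samples was fitted apart, and the bulk fit held 8 libraries in 3 groups. Samples of the same line are paired by origin, although their deviations from the kind means correlated at only -0.01, 0.00, 0.03 and 0.01 over 8421 genes with those of the AdESC sample of that line.

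All 8 troponins are named. From each list (thin filament, thick filament, Z-disc, calcium handling, cardiac transcription factors, heart hormones and energy, skeletal muscle, smooth muscle, pluripotency, fibroblast, neuron, lung epithelial, Sertoli, Leydig, visceral endoderm, endothelial and leukocyte) up to 4 genes past the threshold are named by size, or else the 2 with the highest EB mean. Genes like Tnnc1 are the 10 highest by Pearson correlation over EB cells and the 5 highest over sample means. Alternatives changed the pseudocount, filter, scaling, averaging, replicates and block. On simulated data the EB comparison recovered 32 of 100 genes changed by 2 on the log2 scale and 82 of 100 changed by 4 among 8054 genes. Sequences and positions come from GENCODE M21 (GRCm38), aligned with Biopython 1.88 in Python 3.11.15, and plots from matplotlib 3.10.9. No column was left out.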

Additional observations from a re-analysis of the deposited data

Results flagged for a closer look

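Among the 4 AdESC samples or libraries, 6 of 16 sets of troponin values had a member far from the others, its gap to the nearest exceeding the 95% critical value of Dixon's ratio. Chance gives about 1 in 20 for continuous values, a rate that does not hold for Tnnc2, Tnni2, Tnni3 and Tnnt3, since the other 3 samples were at 0 and any single value above 0 is then picked out. In single cells these were Tnnc2 in MR2-1 (mean 0.288 FPKM), Tnni2 in MR2-1 (0.130 FPKM), Tnnt3 in MR2-1 (0.374 FPKM), Tnni3 in RM2-1 (0.787 FPKM) and Tnnt2 in RM1-1 (0.953 FPKM), each with 1 cell at 1 FPKM or more. In bulk it was Tnnt2 in RM1-1, which was lower than the other AdESC lines at 1.41 FPKM.

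The rise of Tnnc1 over AdESCs was larger in EBs than in somatic testis cells by 5.33 on the log2 scale. This is the same test as that of EBs against testis cells, with a limma adjusted p of 0.0328 and the losses of the call given above.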

How the results depend on the processing

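The number of troponins called moved with several choices. With a pseudocount of 0.1 FPKM it went from 1 to 0 for EBs against testis cells and from 0 to 1 for bulk AdESCs against rat lines (Tnnt1, 2.78, limma adjusted p 0.0358). Without the filter it went from 0 to 2 for EBs against other differentiated samples and from 2 to 1 for all differentiated samples against AdESCs, as it did there with upper-quartile scaling. With means of log values it was also 1 there, since Tnnc1 and Tnnt2 lost their calls and Tnni1 gained one. With a filter at a mean of 5 FPKM it went from 3 to 0 for rat against mouse lines, since no troponin was left to test. With the cell line as a replicate block it went from 2 to 1 for EBs against AdESCs and from 1 to 0 for EBs against testis cells, and no other call of a troponin changed. Leaving out a sample or an EB cell gave 1 to 2 for EBs against AdESCs, 0 to 1 for EBs against testis cells, 0 to 1 for EBs against other differentiated samples, 1 to 2 for all differentiated samples and 0 to 3 for rat against mouse lines. Computed over the 5 RM1-1 cells only, the correlation of Tnnc1 with Tnnt2 was negative (-0.40). The cause of these changes was not tested.

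The number of genes called overall moved by more than 1.5 times as follows. It went from 467 to 25 with the block for EBs against AdESCs (222 to 676 without a sample or cell), and from 938 to 182 with the block for testis cells against AdESCs (517 to 1133). For EBs against testis cells it went from 6 to 3 with a pseudocount of 0.1 FPKM, 44 without the filter, 36 with means of log values and 0 with the block (0 to 189 without a sample or cell). For EBs against other differentiated samples it went from 2 to 512 without the filter, 7 with means of log values and 0 with the block (0 to 246). Leaving out a sample alone also moved it for all differentiated samples against AdESCs (1343, range 791 to 1367) and, in bulk, for AdESCs against mouse lines (342, 151 to 344), AdESCs against rat lines (853, 223 to 1063) and rat against mouse lines (2343, 1059 to 2435). Upper-quartile scaling moved the median log2 difference of all genes from -0.11 to 0.20 for AdESCs against rat lines and from 0.08 to -0.19 for rat against mouse lines. Depth is unknown, so an FPKM of 0 is no measure of absence.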
